A study of Mus musculus with 6 samples.

Results

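The 37 genes described here mark endothelium, the cell layer that lines blood and lymph vessels. They were taken from the deposited expression table by gene symbol, and all 37 were found among its 18849 genes. RNA of whole kidneys was sequenced from 8-week-old C57BL/6 males in 6 libraries, 14 days after unilateral ureteral obstruction (UUO), the surgical blocking of a ureter that serves as a model of kidney scarring. The 3 knockout libraries came from c-Abl floxed mice that also carried Ksp-Cre, a recombinase driven by the promoter of a cadherin of tubule epithelium, so that Abl1 (c-Abl, a tyrosine kinase) was to be deleted in tubule cells and not in endothelium. The 3 floxed libraries came from c-Abl floxed mice without the recombinase, which the genotype label calls WT. Whether the libraries stem from different animals is not stated, so p-values measure only the spread between these libraries. All kidneys were obstructed, and each value therefore compares 1 obstructed genotype with the other.

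Endothelial cells hold together through adhesion molecules at their junctions, and their identity is set by ETS-family transcription factors such as Erg and Fli1 and by the Sox factors Sox7, Sox17 and Sox18. The kidney holds several kinds of endothelium. Glomerular capillaries filter blood and in the mouse are marked by Ehd3, peritubular capillaries take up what the tubules reabsorb and are marked by Plvap, and lymphatic vessels drain tissue fluid and are marked by Lyve1 and Mmrn1. Loss of peritubular capillaries is a known feature of scarred kidneys. In bulk RNA, fewer endothelial cells and less RNA per endothelial cell cannot be told apart.

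Steps between low values put the depth near 16150000 to 18050000 fragments a library, at which 1 FPKM in a transcript of 2 kb stands for about 32.3 to 36.1 fragments. FPKM is the number of fragments scaled to gene length and to the mapped fragments of the library, and it was compared as log2(FPKM + 1) with limma over the 13390 genes that reached 1 FPKM in at least 3 libraries. Log2 fold changes are knockout minus floxed on that scale, and they are too small for low genes. Abl1 itself read 10.46, 14.45 and 12.91 FPKM in knockout replicates 1, 2 and 3, against 18.16, 15.93 and 17.33 FPKM in floxed replicates 1, 2 and 3. Its groups did not overlap (log2 fold change -0.42, SE 0.144, limma adjusted p = 0.144). Across all genes 0.0672% passed an adjusted p of 0.05. For fibroblast and proximal tubule genes knockout replicate 3 lay between the other knockout libraries and the floxed ones, as given below, and without it 15.4% of all genes passed as lower. Floxed replicate 2 had low values for most endothelial genes, so both libraries are left out in turn below.

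No endothelial gene passed the test over all genes, but the means of most were lower in knockout than in floxed kidneys. The summed FPKM of the 37 genes was 286.55, 363.03 and 347.84 in knockout replicates 1, 2 and 3, against 543.81, 330.52 and 516.47 in floxed replicates 1, 2 and 3. The groups overlapped because floxed replicate 2 lay below knockout replicates 2 and 3. The sum averaged 332 ± 40.5 FPKM in knockout and 464 ± 116 FPKM in floxed kidneys (SD, n = 3 each), 28.3% lower in knockout, with an exact two-sided permutation p of 0.30 where the smallest possible is 0.1. The mean of 35 of the 37 genes was lower in knockout kidneys, and those of Cav1 and Sele were higher.

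Of the 37 genes, 31 passed the filter and 6 (Vwf, Selp, Sele, Tal1, Lyve1 and Mmrn1) lay under it. None of the 31 passed through the floxed libraries alone. Sox7 came near to it, with all 3 floxed libraries but only 1 knockout library at 1 FPKM. Its knockout replicates 1, 2 and 3 read 0.59, 0.65 and 1.51 FPKM, and it is kept in the counts. Among the 31, 0 were called lower or higher (limma adjusted p between 0.0633 and 0.895), where 0.0373% of all genes were called lower and 0.0299% higher. By unadjusted limma p under 0.05, 9 were lower (Eng, Fli1, Tmem204, Ecscr, Nostrin, Emcn, Sox7, Ehd3 and Cd34) and 0 higher, where 16.3% of all genes were lower and 8.38% higher. Over all 37 without a filter, 10 were lower at that unadjusted limma p and 0 higher, where 14.3% of all genes were lower and 6.39% higher. The groups did not overlap for 8 of the 31, all lower, where 21.7% of all genes were lower without overlap and 10.0% higher. With the genes under the filter included, Selp and Tal1 made this 10 of 37, where 18.9% of all unfiltered genes were lower without overlap and 7.82% higher.

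The median log2 fold change of the 31 genes was -0.43, against -0.12 over all genes tested. A fold change below 0 was seen for 30 of the 31, and for 65.4% of all genes. Median-ratio scaling moved the median of all genes by 0.14 to 0.020 and that of the endothelial genes to -0.29. Quantile normalisation moved them to -0.0085 and -0.26. The endothelial median minus that of all genes was -0.31 as deposited, -0.31 with median-ratio scaling and -0.26 with quantile normalisation. It was -0.53 without floxed replicate 2, -0.17 without floxed replicate 3 and -0.11 with array weights, which weigh libraries by their fit to the group. With median-ratio scaling 7 endothelial genes were lower and 1 higher at an unadjusted limma p under 0.05, where the deposited scale gave 9 and 0. The shares of all genes at that p were not counted with median-ratio scaling, so the 7 and 1 cannot be set against them. The 31 genes share their libraries, so these medians describe the list and carry no test.

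**Figure D1:**
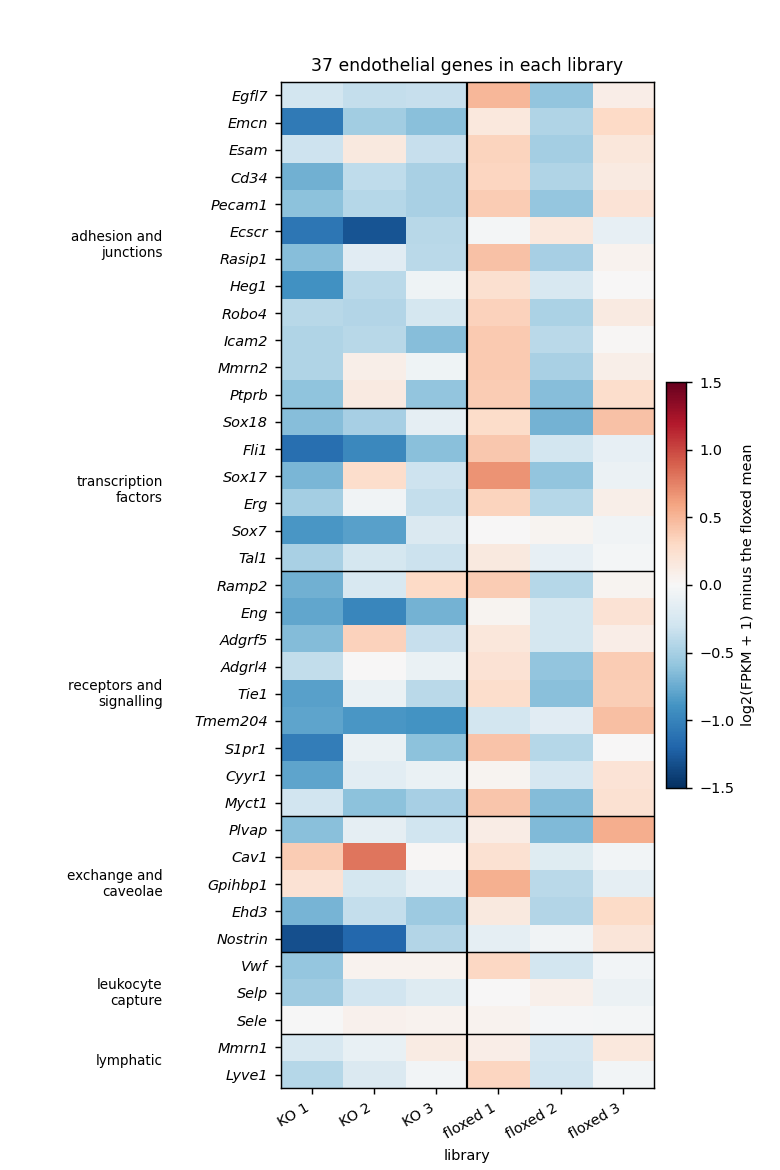
Level of each of the 37 endothelial genes in each library, as log2(FPKM + 1) minus the mean of the 3 floxed libraries (colour scale). Rows are genes grouped by role and columns are the 3 knockout (KO) and the 3 floxed libraries. Floxed replicate 2 is the lowest floxed library for 31 genes, and Cav1 in knockout replicate 2 stands highest above the floxed mean.

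Floxed replicate 2 was the lowest of the floxed libraries for 31 of the 37 genes, where it was lowest for 38.2% of all genes tested. Knockout replicate 1 was the lowest knockout library for 27 of the 37, where it was lowest for 52.4% of all genes. As a deviation from the floxed mean, the median endothelial gene stood at -0.63, -0.27 and -0.34 in knockout replicates 1, 2 and 3, against 0.28, -0.42 and 0.09 in floxed replicates 1, 2 and 3 on the log2(FPKM + 1) scale. The knockout mean was below the value of floxed replicate 2 for 15 of the 37 genes and above it for 22. By its median endothelial level, floxed replicate 2 lay within the span of the knockout libraries.

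Without floxed replicate 2, 21 of the 31 genes were lower at an unadjusted limma p under 0.05 and 0 higher, where 12.1% of all genes were lower and 5.06% higher. The groups then did not overlap for 25 of the 31, all lower, where this held for 27.6% of all genes. The median endothelial fold change was -0.67 without it. Still 0 genes were called after adjustment, among the endothelial genes or among all genes (limma, 0.00% called lower). Without knockout replicate 3, 5 endothelial genes were called lower (Ecscr, Nostrin, Sox7, Eng and Fli1, limma adjusted p between 0.00506 and 0.0223), where 15.4% of all genes were. At an unadjusted limma p under 0.05, 8 were then lower and 1 (Cav1) higher, where 27.1% of all genes were lower and 13.4% higher, and 9 were lower without overlap, where 41.5% of all genes were. The Sox7 call without knockout replicate 3 rests on knockout values under the filter, 0.59 and 0.65 FPKM in replicates 1 and 2. Without knockout replicate 1, 0 endothelial genes were called, where 0.00747% of all genes were called lower. At an unadjusted limma p under 0.05, 5 were then lower, where 10.1% of all genes were. Floxed replicate 2 and knockout replicate 3 were singled out for where their values lay, so these counts show how much rests on each library.

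**Figure D2:**
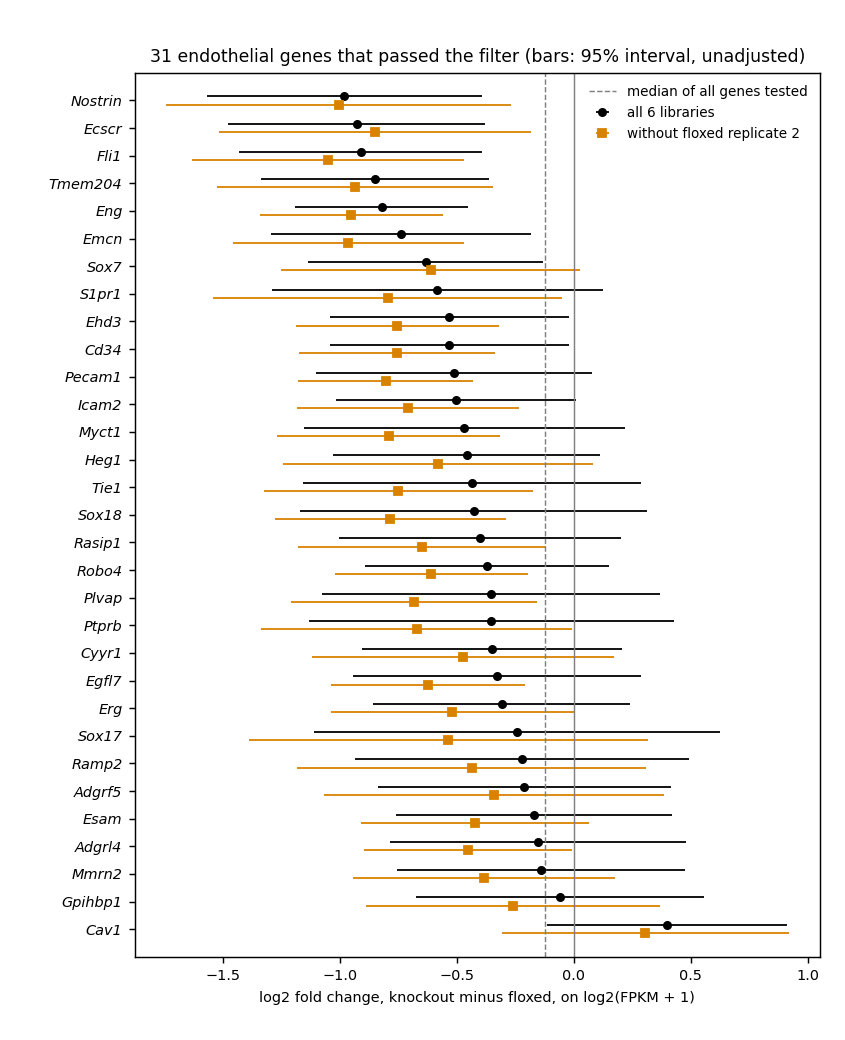
Log2 fold change (knockout minus floxed, on log2(FPKM + 1)) of the 31 endothelial genes that passed the filter, with unadjusted 95% intervals from limma, for all 6 libraries (circles) and without floxed replicate 2 (squares). The dashed line is the median of all genes tested at -0.12, and Cav1 is the gene above 0.

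Among the 12 genes of adhesion and junctions, all had a fold change below 0, as 65.4% of all genes did, and 3 were lower at an unadjusted limma p under 0.05, as 16.3% of all genes were. Pecam1, the junctional adhesion molecule used as a general endothelial marker, read 11.62, 13.32 and 12.77 FPKM in knockout replicates 1, 2 and 3, against 24.16, 11.91 and 21.25 FPKM in floxed replicates 1, 2 and 3. Its knockout libraries were close together, and 2 of the floxed libraries stood well above them while floxed replicate 2 lay among them. The log2 fold change was -0.51 (SE 0.249, limma adjusted p = 0.247), and -0.80 without floxed replicate 2. Ecscr, a surface receptor of endothelial cells, read 8.46, 7.17 and 13.96 FPKM in knockout replicates 1, 2 and 3, against 18.52, 21.29 and 17.34 FPKM in floxed replicates 1, 2 and 3. Unlike most of the list it was highest in floxed replicate 2, and all knockout libraries lay below all floxed ones (log2 fold change -0.93, SE 0.232, limma adjusted p = 0.0915).

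Endomucin (Emcn), a sialomucin of capillary and venous endothelium and the gene with the highest mean level of the list, averaged 30.5 ± 5.93 FPKM in knockout and 52.1 ± 13.5 FPKM in floxed kidneys without overlap. The adhesion molecule Icam2 averaged 4.23 ± 0.427 and 6.59 ± 2.09 FPKM in knockout and floxed kidneys, also without overlap. Cd34, a sialomucin that stromal and progenitor cells carry too, averaged 14.1 ± 1.81 FPKM in knockout and 21.3 ± 5.78 FPKM in floxed kidneys. Cd34 overlapped between the groups, and so did the remaining 7. They are Heg1 and Rasip1, which stabilise junctions and vessel lumens, the phosphatase Ptprb, the guidance receptor Robo4, the secreted factor Egfl7, the junction protein Esam and the matrix protein Mmrn2. Their log2 fold changes ran from -0.46 for Heg1 to -0.14 for Mmrn2, which turned to 0.075 with quantile normalisation.

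Of the 6 transcription factors, 5 were tested and all 5 had a fold change below 0. Fli1, an ETS factor of endothelium that blood cells also express, read 4.48, 5.11 and 6.74 FPKM in knockout replicates 1, 2 and 3, against 14.81, 8.87 and 10.04 FPKM in floxed replicates 1, 2 and 3. The groups did not overlap (log2 fold change -0.91, SE 0.220, limma adjusted p = 0.0855). The related ETS factor Erg, which is more restricted to endothelium, averaged 2.88 ± 0.630 FPKM in knockout and 3.87 ± 1.24 FPKM in floxed kidneys (limma adjusted p = 0.424), with overlap. Tal1, a factor of blood and endothelial development, lay under the filter at 0.51, 0.76 and 0.69 FPKM in knockout and 1.35, 0.94 and 1.08 FPKM in floxed replicates 1, 2 and 3. For Fli1, which blood cells share, the sums of leukocyte markers are given below.

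The Sox factors of endothelium all had a fold change below 0, and none passed. Sox7 averaged 0.917 ± 0.515 FPKM in knockout and 1.91 ± 0.101 FPKM in floxed kidneys, without overlap (log2 fold change -0.63, limma adjusted p = 0.140). Sox18 averaged 7.21 ± 1.52 FPKM in knockout and 10.6 ± 4.30 FPKM in floxed kidneys, with floxed replicate 2 at 5.68 FPKM. Sox17, a factor of arterial endothelium, read 2.53, 5.79 and 3.56 FPKM in knockout replicates 1, 2 and 3, against 8.03, 2.77 and 4.33 FPKM in floxed replicates 1, 2 and 3. The 2 groups of Sox17 cover much the same range (log2 fold change -0.24, SE 0.367, limma adjusted p = 0.688), and its sign turned without floxed replicate 1.

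All 9 receptors and signalling proteins had a fold change below 0. Endoglin (Eng), a co-receptor for TGF-beta and BMP ligands, had the smallest p of the list. It read 20.49, 17.71 and 21.7 FPKM in knockout replicates 1, 2 and 3, against 36.92, 29.9 and 42.09 FPKM in floxed replicates 1, 2 and 3. The groups were well apart, floxed replicate 2 included (45.0% lower in knockout, log2 fold change -0.82, SE 0.156, limma adjusted p = 0.0633). Tmem204, a membrane protein of endothelial junctions, read 5.61, 5.22 and 5.14 FPKM in knockout replicates 1, 2 and 3, against 8.38, 9.13 and 14.57 FPKM in floxed replicates 1, 2 and 3. Its knockout values were nearly equal and below every floxed value (log2 fold change -0.85, SE 0.205, limma adjusted p = 0.0855).

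The other 7 of this group overlapped. The sphingosine phosphate receptor S1pr1, which keeps vessels tight, averaged 4.24 ± 1.70 FPKM in knockout and 6.80 ± 2.27 FPKM in floxed kidneys. The orphan receptor Tie1, a partner of the angiopoietin receptor, averaged 7.99 ± 2.17 FPKM in knockout and 11.5 ± 4.16 FPKM in floxed kidneys. Ramp2, the partner of the adrenomedullin receptor, averaged 27.6 ± 10.1 FPKM in knockout and 31.9 ± 9.04 FPKM in floxed kidneys, and knockout replicate 3 at 38.36 FPKM was near the highest floxed value. The adhesion G protein-coupled receptors Adgrf5 and Adgrl4 had log2 fold changes of -0.21 and -0.15, and the membrane proteins Myct1 and Cyyr1 of -0.47 and -0.35.

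The 5 genes of exchange and caveolae held the most negative and the only positive fold change of the 31. Nostrin, which controls the trafficking of endothelial nitric oxide synthase, read 1.86, 2.15 and 4.26 FPKM in knockout replicates 1, 2 and 3, against 5.53, 5.91 and 7.09 FPKM in floxed replicates 1, 2 and 3. All knockout values lay below all floxed ones, with knockout replicate 3 nearest to them (0.446-fold, log2 fold change -0.98, SE 0.248, limma adjusted p = 0.0930). Caveolin 1 (Cav1), the coat protein of caveolae, which smooth muscle cells, fibroblasts and fat cells also make, read 24.36, 32.88 and 18.72 FPKM in knockout replicates 1, 2 and 3, against 21.78, 16.13 and 17.94 FPKM in floxed replicates 1, 2 and 3. Its groups overlapped and it did not pass (log2 fold change 0.40, SE 0.217, limma adjusted p = 0.287). Gpihbp1, which carries lipoprotein lipase into the capillary lumen, read 13.44, 9.31 and 10.36 FPKM in knockout replicates 1, 2 and 3, against 17.04, 8.39 and 10.31 FPKM in floxed replicates 1, 2 and 3, and its log2 fold change of -0.06 turned to 0.090 with median-ratio scaling and 0.059 with quantile normalisation.

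**Figure D3:**
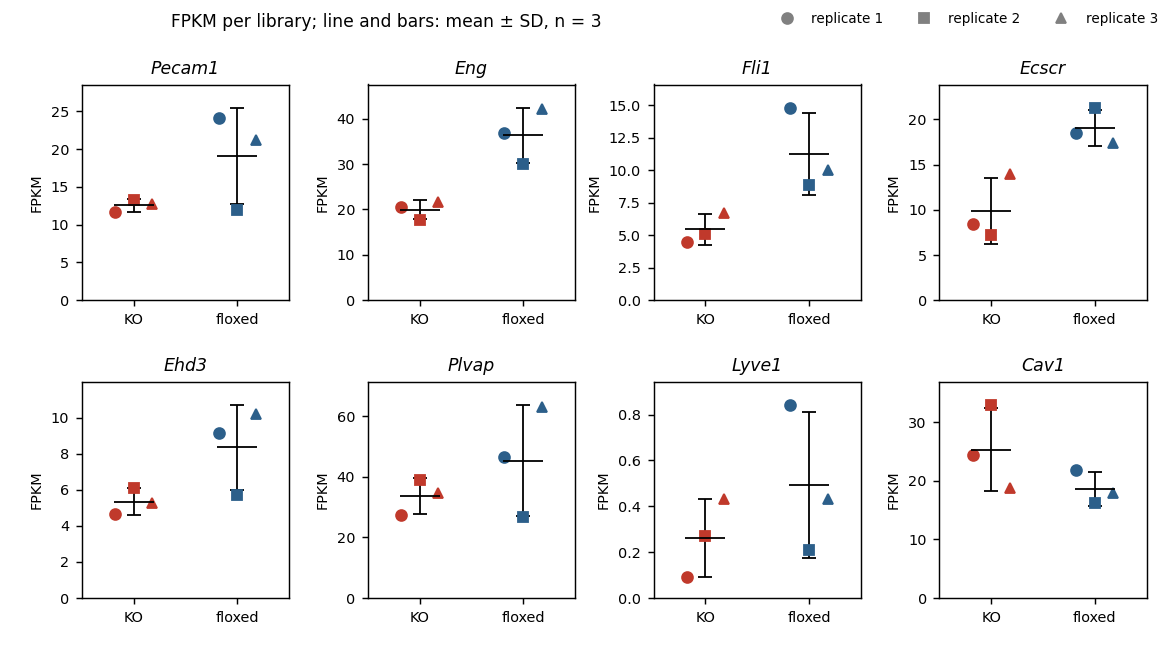
FPKM of 8 endothelial genes in each knockout (KO) and floxed library, with marker shapes for replicates 1 to 3 and the mean ± SD of each group (n = 3). Eng, Fli1 and Ecscr do not overlap between the groups, whereas for Pecam1, Ehd3 and Plvap floxed replicate 2 lies among or below the knockout libraries.

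The kinds of kidney endothelium were set side by side through 4 markers. Ehd3, an endocytic protein of glomerular endothelium, read 4.65, 6.12 and 5.25 FPKM in knockout replicates 1, 2 and 3, against 9.14, 5.72 and 10.18 FPKM in floxed replicates 1, 2 and 3. Plvap, the protein of fenestral diaphragms in peritubular capillaries, read 27.38, 38.95 and 34.58 FPKM in knockout replicates 1, 2 and 3, against 46.47, 26.68 and 63.05 FPKM in floxed replicates 1, 2 and 3. In both genes floxed replicates 1 and 3 lay above every knockout library and floxed replicate 2 did not. The log2 fold change was -0.53 for Ehd3 (SE 0.216, limma adjusted p = 0.191) and -0.35 for Plvap (SE 0.305, limma adjusted p = 0.482).

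The lymphatic markers were near the detection limit. The hyaluronan receptor Lyve1, which some macrophages carry too, read 0.09, 0.27 and 0.43 FPKM in knockout replicates 1, 2 and 3, against 0.84, 0.21 and 0.43 FPKM in floxed replicates 1, 2 and 3. Multimerin 1 (Mmrn1), which is also a platelet protein, read 0.14, 0.25 and 0.47 FPKM in knockout replicates 1, 2 and 3, against 0.44, 0.13 and 0.51 FPKM in floxed replicates 1, 2 and 3. Both genes overlapped between the groups, and both lay under the filter, so they carry no call. Of the other lymphatic markers, the transcription factor Prox1 read 0.93, 1.63 and 0.59 FPKM in knockout replicates 1, 2 and 3, against 0.66, 0.36 and 0.34 FPKM in floxed replicates 1, 2 and 3, opposite in direction to Lyve1. Of the 7 lymphatic genes listed, 3 passed the filter: Pdpn, Flt4 and Ccl21a, with log2 fold changes of -0.59, -0.32 and -0.43. At an unadjusted limma p under 0.05, 0 of the 3 were lower, where 16.3% of all genes were. Pdpn averaged 26.3 FPKM in knockout and 38.1 FPKM in floxed kidneys, far above Lyve1 and Mmrn1. Which cells made Pdpn and Prox1 was not tested, so their values cannot be read as those of lymphatic vessels alone.

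Relative to Pecam1 of the same library, the markers were not shown to differ between the genotypes. The Ehd3 to Pecam1 ratio was 0.424 ± 0.0315 in knockout and 0.446 ± 0.0585 in floxed kidneys (SD, n = 3 each, exact two-sided permutation p = 0.80). The Plvap to Pecam1 ratio was 2.66 ± 0.287 in knockout and 2.38 ± 0.535 in floxed kidneys (n = 3 each, exact permutation p = 0.50). Ratios to Pecam1 were 0.0206 ± 0.0130 in knockout and 0.0242 ± 0.00923 in floxed kidneys for Lyve1 (exact permutation p = 0.70), and 0.0225 ± 0.0128 in knockout and 0.0177 ± 0.00656 in floxed kidneys for Mmrn1 (exact permutation p = 0.60). With 3 libraries a group none of these could have reached 0.05. The log2 difference of the Ehd3 ratio lay between -0.18 and -0.0098 and that of the Plvap ratio between 0.041 and 0.35 when each library was left out in turn.

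The selectins, by which endothelium captures leukocytes, and Vwf were low in every library. P-selectin (Selp), stored in endothelial granules and in platelets, read 0.15, 0.36 and 0.46 FPKM in knockout replicates 1, 2 and 3, against 0.67, 0.76 and 0.57 FPKM in floxed replicates 1, 2 and 3, without overlap. E-selectin (Sele), which inflamed endothelium makes, read 0.1, 0.16 and 0.15 FPKM in knockout replicates 1, 2 and 3, against 0.15, 0.09 and 0.08 FPKM in floxed replicates 1, 2 and 3, with overlap. Von Willebrand factor (Vwf), the clotting protein stored beside P-selectin, read 0.22, 0.89 and 0.9 FPKM in knockout replicates 1, 2 and 3, against 1.26, 0.51 and 0.78 FPKM in floxed replicates 1, 2 and 3, with overlap. All 3 lay under the filter, so they carry no call. Of 9 platelet genes, 6 were below 1 FPKM in every library, and their summed FPKM was 12.02, 6.95 and 67.39 in knockout replicates 1, 2 and 3, against 34.16, 28.85 and 34.38 in floxed replicates 1, 2 and 3. The spread of that sum came from 2 genes: Ppbp read 0.11, 0.84 and 44.93 FPKM and Pf4 read 8.79, 2.81 and 19.42 FPKM in knockout replicates 1, 2 and 3, against 11.21, 3.15 and 10.4 FPKM for Ppbp and 19.24, 22.59 and 21.6 FPKM for Pf4 in floxed replicates 1, 2 and 3. The part of platelet RNA in the Selp and Vwf values was not tested.

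The list holds the ETS factors Erg and Fli1, which bind a core that GGAAG contains, so its promoters were read for that motif. RefSeq promoters on GRCm38.p6, a later build than the mm9 of the deposited table, were found for 20 of the 37 genes, with 27 start sites. Within the 250 bases before the start, GGAAG on either strand stood in 21 of the 27 (77.8%), where 64.1% of all 32851 promoters hold it. The Sox motif AACAAT stood in 3 of the 27 (11.1%, against 9.42% of all promoters) and the Gata motif AGATAA in 3 (11.1%, against 9.99%). These matches describe letters and show no binding. All 3 motifs were searched on both strands, and none of them contains another. The 250 bases before the start are shown for Eng, Nostrin and Emcn, the genes of smallest p with a promoter in the table, and for Cav1, the gene above 0, with GGAAG or its reverse complement in capitals. Eng is at chr2:32646345-32646594 (plus strand), Nostrin at chr2:69135550-69135799 (plus strand), Emcn at chr3:137340828-137341077 (plus strand) and the first of 2 starts of Cav1 at chr6:17306085-17306334 (plus strand).
Eng: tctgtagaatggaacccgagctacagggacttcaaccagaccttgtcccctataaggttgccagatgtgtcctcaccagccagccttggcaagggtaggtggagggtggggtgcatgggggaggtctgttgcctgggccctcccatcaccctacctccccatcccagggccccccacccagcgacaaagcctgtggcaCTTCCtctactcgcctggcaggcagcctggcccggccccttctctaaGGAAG
Nostrin: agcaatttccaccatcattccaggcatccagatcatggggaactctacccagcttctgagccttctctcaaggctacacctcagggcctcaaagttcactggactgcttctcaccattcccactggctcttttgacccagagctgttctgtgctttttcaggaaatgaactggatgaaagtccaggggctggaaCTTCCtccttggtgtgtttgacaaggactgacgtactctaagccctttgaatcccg
Emcn: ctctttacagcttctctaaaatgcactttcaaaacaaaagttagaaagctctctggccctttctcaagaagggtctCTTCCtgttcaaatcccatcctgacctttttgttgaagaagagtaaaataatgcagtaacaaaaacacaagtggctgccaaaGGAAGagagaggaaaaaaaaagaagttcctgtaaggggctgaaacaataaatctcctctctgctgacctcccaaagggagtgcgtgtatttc
Cav1: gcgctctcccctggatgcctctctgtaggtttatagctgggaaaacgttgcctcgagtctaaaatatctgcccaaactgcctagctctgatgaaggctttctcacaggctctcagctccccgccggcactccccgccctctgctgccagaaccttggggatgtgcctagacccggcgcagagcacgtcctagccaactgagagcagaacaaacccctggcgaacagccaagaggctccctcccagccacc
Eng and Emcn hold 2 matches each, Nostrin holds 1, and neither start of Cav1 holds any in this window. Among genes not shown, Ehd3, which was lower at an unadjusted limma p under 0.05, holds 0. Tie1 holds 6 and the first start of Adgrf5 holds 5, and neither gene was lower at that p. Whether matches go with fold changes was not tested.

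A list of 30 other endothelial genes, which shares no member with the 37, was read beside them. All 30 passed the filter, 28 had a fold change below 0 (65.4% of all genes did), and the median was -0.46. At an unadjusted limma p under 0.05, 10 were lower and 1 higher, where 16.3% of all genes were lower and 8.38% higher. None passed after adjustment (0 of 30 by limma), and floxed replicate 2 was the lowest floxed library for 27 of the 30. The junctional cadherin Cdh5 read 5.54, 5.81 and 6.23 FPKM in knockout replicates 1, 2 and 3, against 11.36, 5.15 and 9.97 FPKM in floxed replicates 1, 2 and 3, and the VEGF receptor Kdr read 3.01, 3.43 and 2.9 FPKM against 4.7, 2.37 and 5.58 FPKM in the same order. Both had floxed replicate 2 below every knockout library. The genes with the smallest p kept floxed replicate 2 above the knockout libraries. The apelin receptor Aplnr averaged 3.32 ± 0.851 FPKM in knockout and 7.97 ± 0.831 FPKM in floxed kidneys (limma adjusted p = 0.0547). Thrombomodulin (Thbd), which checks clotting on the vessel wall, averaged 6.82 ± 2.04 FPKM in knockout and 18.5 ± 3.70 FPKM in floxed kidneys (limma adjusted p = 0.0547). Arap3 averaged 6.28 ± 0.423 FPKM in knockout and 11.4 ± 1.58 FPKM in floxed kidneys (limma adjusted p = 0.0601). The adrenomedullin receptor Calcrl, partner of Ramp2, averaged 4.41 ± 1.36 FPKM in knockout and 9.82 ± 1.29 FPKM in floxed kidneys (limma adjusted p = 0.0687).

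Markers of other cells also differed between the libraries. The 10 podocyte genes, which sit beside Ehd3 in the glomerulus, summed to 111.15, 138.44 and 102.48 FPKM in knockout replicates 1, 2 and 3, against 189.72, 132.48 and 195.94 FPKM in floxed replicates 1, 2 and 3. At an unadjusted limma p under 0.05, 6 of the 10 podocyte genes were lower, where 16.3% of all genes were. The podocyte median log2 fold change was -0.63, against -0.43 for the endothelial genes. All 10 podocyte genes were lowest of the floxed libraries in floxed replicate 2, as most endothelial genes were. So were 9 of the 12 pericyte and smooth muscle genes, where floxed replicate 2 was lowest for 38.2% of all genes tested. The 11 macrophage genes summed to 401 to 696 FPKM in knockout and 896 to 1226 FPKM in floxed libraries, 10 of them were tested and all 10 were lower at an unadjusted limma p under 0.05, where 16.3% of all genes were, and in none was floxed replicate 2 the lowest floxed library. Macrophages can carry Fli1, Eng and Lyve1, and the part of this list in those values was not tested. The 7 leukocyte and lymphocyte genes summed to 31.54, 43.32 and 51.82 FPKM in knockout replicates 1, 2 and 3, against 174.21, 49.08 and 45.18 FPKM in floxed replicates 1, 2 and 3. That sum was highest in floxed replicate 1, where Cd79a read 54.7 FPKM and Ptprc 53.97 FPKM. Fli1 and Tal1 were highest in floxed replicate 1 too, but so were Pecam1 and Erg, so this peak is not particular to Fli1 and Tal1. Within that list Ptprc, which all leukocytes carry, read 13.92, 17.49 and 22.15 FPKM in knockout replicates 1, 2 and 3, against 53.97, 32.47 and 28.65 FPKM in floxed replicates 1, 2 and 3, without overlap, as Fli1 and Tal1 were (limma adjusted p = 0.0952). Of the 5 genes of that list tested, 1 (Ptprc) was lower without overlap, where 21.7% of all genes were. Lck, Cd3e and Cd3d overlapped between the groups, and the log2 fold change of Cd79a was 0.35, also with overlap. The part of leukocyte RNA in the Fli1 and Tal1 values was not tested.

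Stromal and tubule lists also differed among the knockout libraries. The 10 fibroblast genes stood at a median of -2.04, -1.87 and -0.85 in knockout replicates 1, 2 and 3, relative to the mean of the floxed libraries, and the 12 pericyte and smooth muscle genes at -1.30, -0.95 and -0.25. The 12 proximal tubule genes stood at 1.96, 1.79 and 0.39. In those lists knockout replicate 3 was nearest to the floxed libraries, while the endothelial medians of knockout replicates 2 and 3 were -0.27 and -0.34, a difference in order that was not tested. Single endothelial genes of small p had knockout replicate 3 nearest to the floxed libraries too, with Ecscr at -1.08, -1.29 and -0.42, Nostrin at -1.32, -1.18 and -0.44, Sox7 at -0.87, -0.82 and -0.21 and Fli1 at -1.13, -0.97 and -0.63 in knockout replicates 1, 2 and 3. The summed FPKM of the proximal tubule genes was 3562, 3601 and 1064 in knockout and 621, 835 and 934 in floxed replicates 1, 2 and 3. FPKM is a share of all fragments in a library, and the part of this tubule RNA in the endothelial values was not tested.

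**Figure D4:**
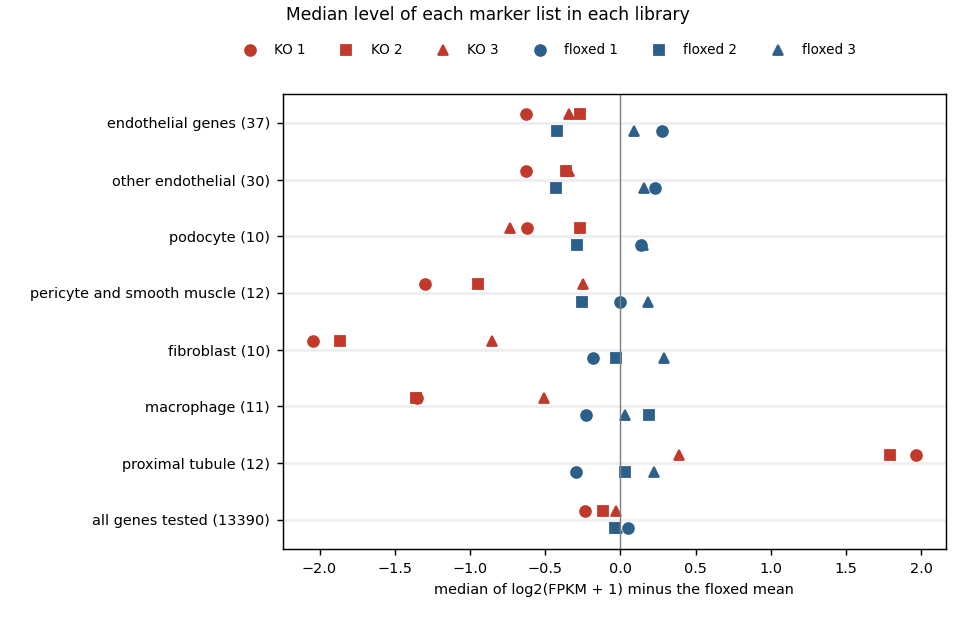
Median, over the genes of each list, of log2(FPKM + 1) minus the floxed mean, in each knockout (KO) and floxed library. The endothelial list, the podocyte list and the pericyte and smooth muscle list are low in floxed replicate 2. Fibroblast, macrophage and proximal tubule genes separate knockout replicates 1 and 2 from the rest.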

How the data were processed

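The values are FPKM, as the authors deposited them and per the file headers, with 2 decimals. Reads were mapped to mm9, per the submitters' processing notes. Aligner, counting tool, annotation, strand use and filters: not given in the sources used here. The RNA was extracted with TRIzol, per the labels' protocols. Of 18849 Entrez identifiers 18792 were found in the RefSeq table of another build (GRCm38.p6), used for names and promoters only, and 26 symbols turned into dates were restored through it. No pair of libraries held identical values.

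Groups and replicate numbers came from the sample titles. The filter of 1 FPKM in 3 or more of the 6 libraries kept 13390 genes. Their log2(FPKM + 1) values went into limma 3.58.1 (R 4.3.3, trend on) with genotype alone in the model, and two-sided p-values were adjusted over all genes by Benjamini-Hochberg at 0.05. The code was tested on simulated data. Sums and ratios were compared by exact permutation over 3 against 3 libraries, with scipy 1.17.1 in Python 3.11.15, which also used numpy 2.4.6, pandas 2.3.3 and matplotlib 3.10.9. Depth was estimated from the spacing of low values of transcripts of 300 to 2000 nucleotides, of which 66.7% to 70.7% lay within 0.2 of a whole fragment at the best depth, and it is approximate.

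The endothelial genes, the role groups and the 14 marker lists were chosen with earlier results of these data known. Every member is named. Values in every library are given for 10 markers (Pecam1, Eng, Ehd3, Plvap, Lyve1, Mmrn1, Sox17, Vwf, Selp and Sele) and for up to 5 members with the smallest p in each direction, 15 genes in all, and for Tal1 and Gpihbp1, which were added after their values were seen. Of other lists, Cdh5, Kdr and Prox1 are named, with some but not all of the 4 genes of smallest p in each. In the venous list, for example, Icam1 had a smaller p than Vcam1 and is not described. Cd79a and Lpl were named after their values were seen. The alternatives were another pseudocount, no filter or a filter on mean FPKM (5 or more), median-ratio, quantile and TPM scaling, limma without its trend, array weights, a replicate block, each library left out in turn, and other denominators.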

Additional observations from a re-analysis of the deposited data

How the results depend on the processing

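The number of genes called across the table was 9 with all libraries. It was 1 with a pseudocount of 0.1, without a filter, with a mean FPKM of at least 5, with median-ratio or quantile scaling and with limma without its trend, 4796 with array weights, and between 0 (without floxed replicate 2 or floxed replicate 3) and 3271 (without knockout replicate 3) with a library left out. Of the 31 endothelial genes tested, 0 were called lower or higher with all libraries. With array weights 6 were called lower and 1 (Cav1) higher, where 4796 of the 13390 genes tested were called in either direction. With a library left out 0 to 5 were called lower, the 5 without knockout replicate 3, where 15.4% of all genes were called lower. Gene-by-gene array weights ran from 0.261 for knockout replicate 3 to 2.79 for knockout replicate 2, and the cause of the added calls was not tested. The 9 endothelial genes lower at an unadjusted limma p under 0.05 became 5 without knockout replicate 1 and 21 without floxed replicate 2, and the 0 higher became 1 with median-ratio scaling and with array weights and ranged from 0 to 1 with a library left out. For median-ratio scaling and array weights the shares of all genes at that p were not counted. The 8 genes lower without overlap ranged from 8 to 25 with a library left out (25 without floxed replicate 2), and those higher without overlap from 0 to 1.

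The direction of the median endothelial fold change, of the summed FPKM, of Abl1 and of the Ehd3 and Plvap ratios held in all alternatives run. The median was -0.20 with array weights. With a library left out it ranged from -0.67 to -0.30 and the log2 difference of the sum from -0.68 to -0.32. The Lyve1 ratio difference of -0.41 ranged from -0.89 to 0.17 and the Mmrn1 ratio difference of 0.27 from -0.16 to 0.64. Of 457 fits of single genes under 15 alternatives, 19 turned sign, in 8 genes, and 12 gained a call. Quantile normalisation turned Mmrn2 (0.075), Adgrl4 (0.0098) and Gpihbp1 (0.059), and median-ratio scaling turned Gpihbp1 (0.090). Array weights turned Esam (0.19), Ptprb (0.15), Mmrn2 (0.17), Sox17 (0.35), Adgrl4 (0.065), Adgrf5 (0.24) and Gpihbp1 (0.010). With a library left out Mmrn2 ranged from -0.38 to 0.055, Sox17 from -0.54 to 0.093, Ramp2 from -0.48 to 0.027, Adgrl4 from -0.45 to 0.040, Adgrf5 from -0.49 to 0.0050 and Gpihbp1 from -0.26 to 0.21. The causes were not tested.

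The shared replicate numbers were not shown to pair the libraries. Same-numbered libraries deviated from their group means with correlations of -0.13, -0.070 and 0.034 across genes. With 3 libraries a group, such correlations cannot exclude a pairing. With the replicate block 2 genes were called, 0 of them endothelial, and 7 endothelial genes were lower at an unadjusted limma p under 0.05. The share of all genes lower at that p was not counted with the block. Genes under 1 FPKM rest on few fragments, which limits Lyve1, Mmrn1, Sele, Selp, Vwf and Tal1.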

Other observations

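Lists of arterial, venous, peritubular and glomerular markers, which share some genes with the 37, were read beside them. Of 10 arterial genes, 9 passed the filter, 1 of them (the Notch target Hey1) through the floxed libraries alone. Of the other 8, 3 were lower at an unadjusted limma p under 0.05, where 16.3% of all genes were. The 3 were the Notch ligand Jag1 (6.83, 10.1 and 11.41 FPKM in knockout against 16.64, 14.05 and 15.53 FPKM in floxed replicates 1, 2 and 3, limma adjusted p = 0.108), the elastic fibre protein Fbln5 and the ephrin Efnb2, and in each the groups did not overlap. These 3 are also made by cells other than endothelium. The gap junction genes of arterial endothelium, named after their values were seen, overlapped, with Gja5 at 2.26, 2.96 and 3.01 FPKM in knockout against 3.9, 1.55 and 2.65 FPKM in floxed replicates 1, 2 and 3 and Gja4 at 2.58, 3.31 and 2.98 FPKM in knockout against 5.87, 1.67 and 3.21 FPKM in floxed replicates 1, 2 and 3. In both, floxed replicate 2 was the lowest library of all.

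Of 7 venous and inflamed endothelial genes, 4 passed the filter, and Nr2f2, a transcription factor of venous identity that stromal cells share, read 27.77, 27.32 and 34.75 FPKM in knockout against 51.4, 48.68 and 58.93 FPKM in floxed replicates 1, 2 and 3 (limma adjusted p = 0.0547). The adhesion molecule Vcam1 read 66.45, 93.55 and 259.89 FPKM in knockout against 159.49, 181.84 and 166.79 FPKM in floxed replicates 1, 2 and 3, so that knockout replicate 3 was the highest library and knockout replicates 1 and 2 the lowest. Of 3 peritubular genes, Npr3, the clearance receptor for natriuretic peptides, read 1.78, 2.49 and 1.61 FPKM in knockout against 6.41, 13.12 and 11.81 FPKM in floxed replicates 1, 2 and 3 (limma adjusted p = 0.0547), while Igfbp3 overlapped between the groups as Plvap did. Of 7 glomerular endothelial genes, 5 passed the filter, all 5 with a fold change below 0, as 65.4% of all genes had, and a median of -0.45. At an unadjusted limma p under 0.05, 1 (Ehd3) was lower, where 16.3% of all genes were. Lpl, at a log2 fold change of -0.13, had the higher mean FPKM in knockout kidneys (79.4 against 70.1 FPKM). Plat was highest of all libraries in knockout replicate 3 (71.02 FPKM). Of 9 listed erythrocyte genes, 8 were found, and they summed to 55.19, 355.18 and 300.17 FPKM in knockout and 107.25, 134.39 and 272.13 FPKM in floxed replicates 1, 2 and 3, with overlap.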
